A study of Mus musculus with 4 samples.

Results

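Genes used as markers of endoderm, Ttr, Apob, Apom, Afp, Apoa1, Hnf4a, Sox17, Foxa2, Pga5 and Trh, were followed through mouse embryoid bodies with and without Snai1. They were taken by name from the array annotation, which paired them with 21 probe sets, and they are 10 of 17097 named genes. The apolipoprotein-type genes (Ttr, Apob, Apom, Afp and Apoa1, whose products are secreted plasma proteins) were kept apart from Sox17, Foxa2, Pga5 and Trh, and Hnf4a was described on its own. The genes were chosen by their log2 values on these same 4 arrays, since they were listed with earlier results known, so every value of theirs below is a description.

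The 4 groups of cells, all derived from embryonic stem cells that formed embryoid bodies in hanging drops and then in suspension, were each measured on 1 array. They were Snai1 knockout (KO) Flk1+ cells, KO Flk1- cells, control (F/F) Flk1+ cells and F/F Flk1- cells, sorted with an antibody to Flk1, the VEGF receptor encoded by Kdr. The descriptions place all 4 samples at day 4, but the source name of the KO Flk1- sample says day 5. Whether each line was 1 clone, and how the F/F allele relates to the knockout, is not stated by the labels.

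Endoderm arises at several places in the early mouse embryo. Primitive endoderm gives rise to visceral endoderm, which surrounds the epiblast and later lines the yolk sac, and which makes plasma proteins and apolipoproteins before there is a liver, under transcription factors that include Hnf4a and the Gata factors. Definitive endoderm leaves the primitive streak under high Nodal signalling, expresses Sox17 and Foxa2, and forms the gut. Sox17 and Foxa2 are also expressed in visceral endoderm, so neither alone tells the lineages apart.

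All values are log2 expression values, and a difference is one array's value minus another's. A gene was read as above background where it exceeded a floor of 3.19, set at the 40th percentile of the gene values of the 4 arrays together, and 10195 to 10302 genes did so on each array. Each group was 1 array, so no spread between cultures was measured, and the differences between 2 arrays were not tested. A fit of genotype and fraction together over the 4 arrays was not run, so 2-fold (a difference of 1) is only a rule of size. Kdr was at 9.03 in KO Flk1+ and 3.88 in KO Flk1- cells, and at 8.92 in F/F Flk1+ and 4.55 in F/F Flk1- cells, as the sort labels say. Snai1 was below the floor on all 4 arrays and does not check the genotype labels. Gapdh control probes, which report on RNA integrity and amplification, read higher at the 3' end than at the 5' end by 1.47 in KO Flk1+ and 1.99 in KO Flk1- cells, and by 2.05 in F/F Flk1+ and 1.76 in F/F Flk1- cells, and the part of this in the results was not tested. In these bulk samples, fewer cells of a type and less RNA per cell cannot be told apart.

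Among the plasma protein genes, Ttr and Apob were lower in the knockout in both fractions. Apom and Apoa1, which lay less than 1 above the floor or below it, did not share that pattern, and nearly all Afp values were below the floor. Ttr encodes transthyretin, a carrier of thyroid hormone and of retinol-binding protein. It was at 4.79 in KO Flk1+ against 6.89 in F/F Flk1+ cells, and at 4.68 in KO Flk1- against 7.36 in F/F Flk1- cells. Both KO arrays were therefore below both F/F arrays, with Ttr 4.30-fold lower in Flk1+ and 6.40-fold lower in Flk1- cells. A second Ttr probe set gave differences of -0.60 in Flk1+ and -1.97 in Flk1- cells, in the same direction but short of 2-fold in Flk1+ cells.

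Apob encodes the structural protein of low-density and very-low-density lipoproteins. Its only probe set was at 4.20 in KO Flk1+ against 4.83 in F/F Flk1+ cells, and at 3.43 in KO Flk1- against 4.52 in F/F Flk1- cells. The differences were -0.63 in Flk1+ and -1.10 in Flk1- cells, so Apob was 2.14-fold lower in KO Flk1- cells and ended near the floor there. Again both KO values were lower than both F/F values.

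Apom encodes a small lipocalin that rides mainly on high-density lipoprotein. It was at 3.82 in KO Flk1+ against 3.64 in F/F Flk1+ cells, and at 3.28 in KO Flk1- against 4.16 in F/F Flk1- cells. The knockout difference was thus 0.17 in Flk1+ and -0.88 in Flk1- cells, with F/F Flk1- cells the highest of the 4 groups. The other Apom probe set had the same signs, 0.03 and -0.31, with 1 of its 4 values above the floor.

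Apoa1, the main protein of high-density lipoprotein, was at 4.17 in KO Flk1+ against 3.72 in F/F Flk1+ cells, and at 3.37 in KO Flk1- against 3.42 in F/F Flk1- cells. KO Flk1+ cells were the highest on both of its probe sets, with knockout differences of 0.45 and 1.06 in Flk1+ cells and of -0.05 and 0.13 in Flk1- cells. Afp, the fetal plasma protein alpha-fetoprotein and a classical visceral endoderm marker, was above the floor in 1 of the 20 values of its 5 probe sets, at 3.29 in F/F Flk1+ cells. No fold is given for Afp in Flk1- cells, where both arrays were below the floor.

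**Figure D1:**
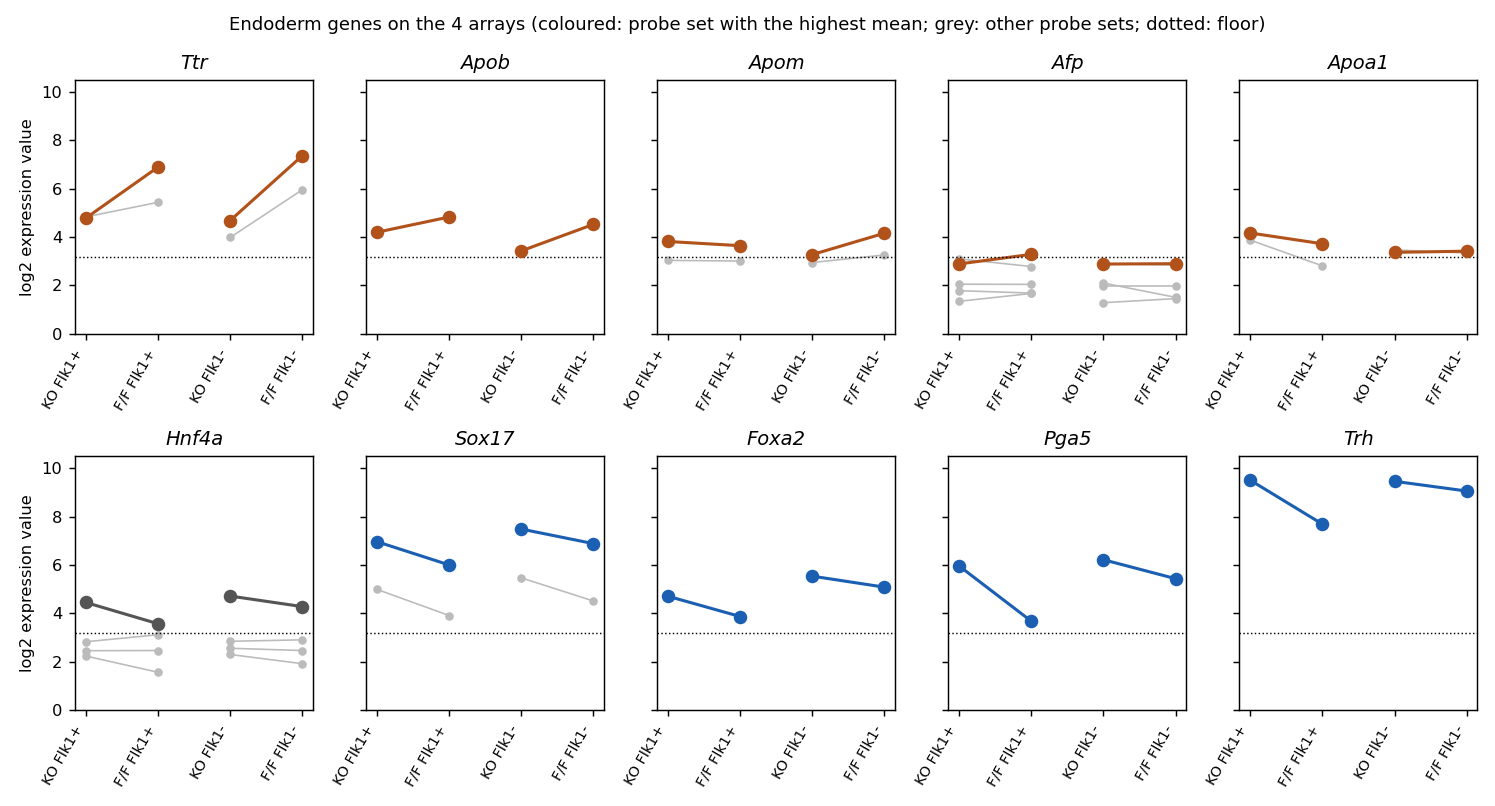
Log2 expression values (vertical axis) of the 10 endoderm genes in KO and F/F cells of the Flk1+ and Flk1- fractions (horizontal axis), with 1 array per group and therefore no error bars. Each line joins KO to F/F of the same fraction for 1 probe set, and the dotted line is the floor at 3.19. Ttr and Apob are lower in KO in both fractions, Sox17, Foxa2, Pga5 and Trh are higher, and nearly all Afp values lie below the floor.

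Sequence upstream of the start site is shown for Apob, which was lower in the knockout, and for Apoa1 and Afp, which were near or below the floor, to set promoters of the same gene class side by side. Each line holds the 250 bases before the start, 5′ to 3′ on the gene's strand, from RefSeq (GRCm38.p6). Any members on a chromosome that the plan left out were not searched, and 7 of the 10 genes had a promoter window among the rest. Capitals mark matches, on either strand, to motifs of factors that act in endoderm or of Snail proteins.
Apob (chr12:7977427-7977676, + strand): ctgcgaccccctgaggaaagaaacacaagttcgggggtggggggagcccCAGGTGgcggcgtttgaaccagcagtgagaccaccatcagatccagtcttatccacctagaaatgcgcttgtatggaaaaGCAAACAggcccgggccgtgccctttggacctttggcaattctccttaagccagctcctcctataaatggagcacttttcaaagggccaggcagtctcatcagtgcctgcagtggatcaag
Apoa1 (chr9:46228380-46228629, + strand): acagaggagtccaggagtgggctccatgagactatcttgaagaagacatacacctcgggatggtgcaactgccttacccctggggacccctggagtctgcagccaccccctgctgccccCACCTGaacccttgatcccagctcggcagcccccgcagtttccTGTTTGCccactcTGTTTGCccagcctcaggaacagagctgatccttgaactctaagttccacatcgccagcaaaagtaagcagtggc
Afp (chr5:90490464-90490713, + strand): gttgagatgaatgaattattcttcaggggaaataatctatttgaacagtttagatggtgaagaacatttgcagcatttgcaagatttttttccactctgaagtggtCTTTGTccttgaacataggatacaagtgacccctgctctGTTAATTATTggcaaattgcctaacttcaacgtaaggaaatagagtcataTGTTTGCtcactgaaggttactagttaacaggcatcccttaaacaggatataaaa

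The letters searched for HNF4 were CAAAGTCCA or else CAAAGGTCA. For FOXA factors they were TGTTTAC or else TGTTTGC, with TATTTAC or else TATTTGC as variants. For GATA factors they were AGATAA or else TGATAA, for SOX factors ACAAAG or else ACAATG, and for the E-box that Snail proteins bind CAGGTG. The HNF1 motif was also searched. The Apob, Apoa1 and Afp windows each held a FOXA match (TGTTTGC), and the Apoa1 window held it in 2 places. A FOXA match was present in 11.9% of the 32851 promoter windows in the table. The E-box CAGGTG was in the Apob and Apoa1 windows and in 17.2% of all windows, and the HNF1 motif was in the Afp window and in 0.371% of all. No HNF4 match was found in the windows of the 7 genes, against 0.807% of all windows, and the Apom window held no match to any of the motifs. A match is a string of letters and shows no binding.

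Sox17, Foxa2, Pga5 and Trh were all higher in the knockout, in Flk1+ and in Flk1- cells, and for each of them the difference was larger in Flk1+ cells. Sox17 encodes an SRY-related transcription factor needed for definitive endoderm. It was at 6.96 in KO Flk1+ against 6.003 in F/F Flk1+ cells, and at 7.48 in KO Flk1- against 6.88 in F/F Flk1- cells, which gives differences of 0.96 and 0.60. A second Sox17 probe set gave 1.08 and 0.96. Foxa2, a forkhead factor that opens chromatin in endoderm, node and floor plate, was at 4.71 in KO Flk1+ against 3.87 in F/F Flk1+ cells, and at 5.54 in KO Flk1- against 5.08 in F/F Flk1- cells. Its differences were 0.84 and 0.45, so it stayed under 2-fold in both fractions.

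Pga5 and Trh had the larger differences. Pga5 encodes a pepsinogen, the precursor of a stomach protease. It was at 5.96 in KO Flk1+ against 3.68 in F/F Flk1+ cells, and at 6.22 in KO Flk1- against 5.44 in F/F Flk1- cells. F/F Flk1+ cells stood apart as the low group, and Pga5 was 4.85-fold higher in KO Flk1+ and 1.72-fold higher in KO Flk1- cells. Trh encodes the precursor of thyrotropin-releasing hormone. It was at 9.50 in KO Flk1+ against 7.69 in F/F Flk1+ cells, and at 9.46 in KO Flk1- against 9.06 in F/F Flk1- cells. The F/F Flk1+ array was again the low one, with Trh 3.51-fold higher in KO Flk1+ and 1.32-fold higher in KO Flk1- cells.

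Of these 4 genes, Foxa2 and Trh had promoter windows in the table, and they are shown, Foxa2 by 1 of its 3 windows, as promoters of genes that were higher in the knockout, with the same marks as above.
Foxa2 (chr2:148045465-148045714, - strand): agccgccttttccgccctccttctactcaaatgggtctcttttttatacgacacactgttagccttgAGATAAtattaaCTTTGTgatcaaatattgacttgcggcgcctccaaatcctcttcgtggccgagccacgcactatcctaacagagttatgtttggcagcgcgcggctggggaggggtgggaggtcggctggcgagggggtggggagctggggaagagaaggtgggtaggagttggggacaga
Trh (chr6:92244651-92244900, - strand): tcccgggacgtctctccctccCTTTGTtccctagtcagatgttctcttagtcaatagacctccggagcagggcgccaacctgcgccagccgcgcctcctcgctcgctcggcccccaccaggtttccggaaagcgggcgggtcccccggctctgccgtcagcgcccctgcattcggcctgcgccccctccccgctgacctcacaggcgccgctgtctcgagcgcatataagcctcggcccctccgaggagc
Each held a SOX match (ACAAAG on the opposite strand), as did 25.2% of all windows, and the Foxa2 window also held a GATA match, as did 16.6% of all. The other 2 Foxa2 windows in the table held none of the motifs, and neither gene's windows held the E-box CAGGTG.

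Hnf4a, the nuclear receptor that drives many hepatic and visceral endoderm genes, including apolipoprotein genes, was measured above the floor by 1 of its 4 probe sets. On it, Hnf4a was at 4.45 in KO Flk1+ against 3.57 in F/F Flk1+ cells, and at 4.72 in KO Flk1- against 4.28 in F/F Flk1- cells. The knockout differences of 0.88 and 0.44 had the sign of those of Sox17 and Foxa2, and the opposite sign to those of Ttr and Apob. The other 3 probe sets were below the floor on every array. Of the 2 Hnf4a promoter windows in the table, 1 held a GATA match (AGATAA) and the other held the E-box CAGGTG.

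By the 2-fold rule, Pga5 and Trh were higher and Ttr was lower in KO Flk1+ cells, 3 of the 10 genes. Among the 10655 genes above the floor in that comparison, 0.873% were higher and 0.976% lower (93 and 104 genes, or 120 and 84 with the arrays centred on the median). In KO Flk1- cells Ttr and Apob were lower and 0 of the 10 were higher, where 0.949% of 10533 genes were lower and 0.389% higher. Nothing is read from these counts, since the genes were listed with these contrasts known. The median difference of all genes above the floor was -0.05 in Flk1+ and 0.04 in Flk1- cells, so the shift of all genes was small beside that of Ttr, Pga5 or Trh.

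**Figure D2:**
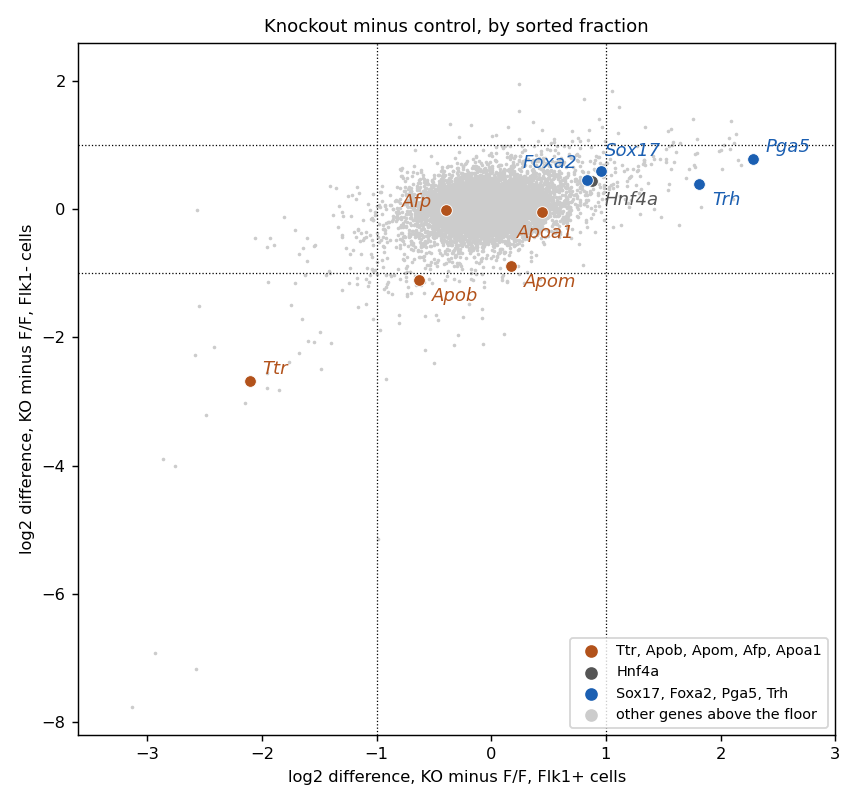
Log2 difference KO minus F/F in Flk1+ cells (horizontal axis) against that in Flk1- cells (vertical axis), 1 point per gene above the floor, with the 10 endoderm genes coloured and the 2-fold rule dotted. Ttr lies at -2.10 and -2.68, while Pga5 lies at 2.28 and 0.78 and Trh at 1.81 and 0.40.

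By the 2-fold rule, 3 of the 10 genes differed by sort in F/F cells and 0 in KO cells, and at 1.5-fold 5 and 3 did. Nothing is read from these counts, since the genes were listed with these contrasts known, and the difference between the genotypes could not be tested. In KO cells, 1.62% of 10688 genes were 2-fold higher and 2.17% 2-fold lower in Flk1+ than in Flk1- cells, and 0 of 10 is near that share. In F/F cells Pga5, Trh and Foxa2 were lower in Flk1+ cells, by 3.38-fold, 2.58-fold and 2.32-fold, where 1.20% of 10622 genes were higher and 1.51% lower. The Flk1+ minus Flk1- difference of Trh was 0.04 in KO and -1.37 in F/F cells, and that of Pga5 was -0.26 in KO and -1.76 in F/F cells. Foxa2 and Sox17 had differences of -0.83 and -0.52 in KO cells, and of -1.21 and -0.88 in F/F cells.

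None of the 4 plasma protein genes above the floor was lower in the Flk1+ fraction of KO cells. Apob had Flk1+ minus Flk1- differences of 0.77 in KO and 0.30 in F/F cells, and Apoa1 had 0.80 in KO and 0.31 in F/F cells. The second Apoa1 probe set had -0.53 in F/F cells, so the sign for Apoa1 in F/F cells depends on the probe set. Ttr had 0.10 in KO and -0.47 in F/F cells, and Apom 0.54 in KO and -0.52 in F/F cells, each with the same signs on its second probe set. The genotype and the sort comparisons use the same 4 arrays and are not independent of each other.

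**Figure D3:**
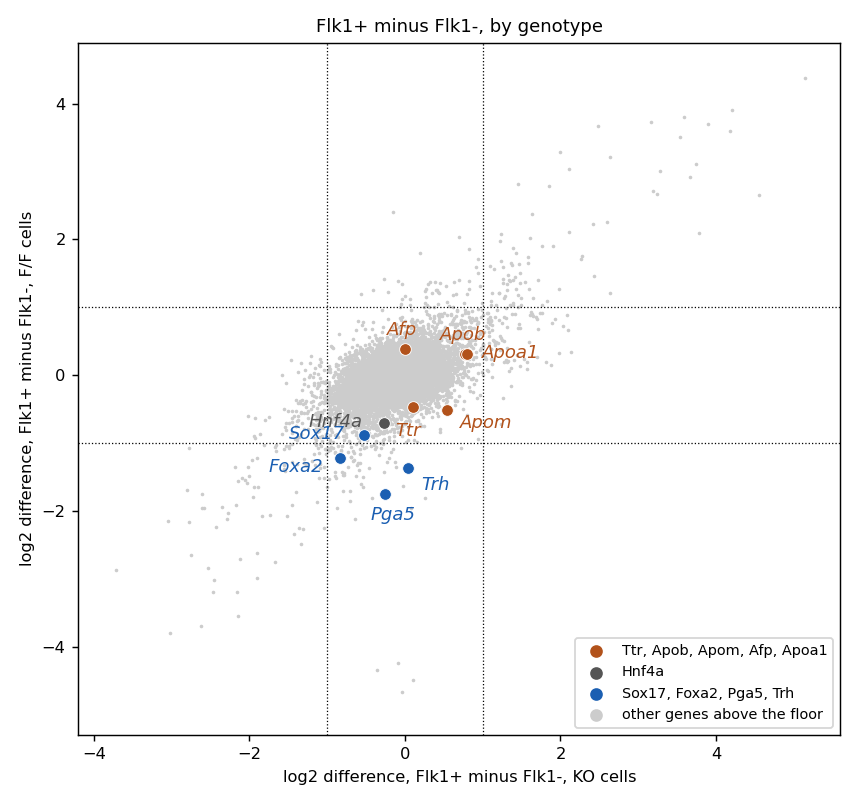
Log2 difference Flk1+ minus Flk1- in KO cells (horizontal axis) against that in F/F cells (vertical axis), 1 point per gene above the floor, with the 10 endoderm genes coloured and the 2-fold rule dotted. Pga5, Trh and Foxa2 lie below -1 on the F/F axis, at -1.76, -1.37 and -1.21, and none of the 10 genes passes 1 in size on the KO axis.

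Other genes of the visceral endoderm programme were read from lists that were also chosen with earlier results known. Besides the members, 19 apolipoprotein and lipoprotein genes were named on the array. Of the 14 above the floor in Flk1+ cells of either genotype, 6 were higher and 8 lower in KO, with a median of -0.01 against -0.05 for all genes, of which 42.5% were higher. In Flk1- cells, where 56.8% of all genes were higher in KO, 9 were higher and 5 lower, with a median of 0.22 against 0.04, and none was 2-fold apart in either fraction (0 genes). Vldlr, a receptor of the low-density lipoprotein receptor family, had knockout differences of -0.997 in Flk1+, just short of 2-fold, and -0.37 in Flk1- cells. Apoe, the ligand of these receptors, was named only after its values were known, and it was at 7.31 in KO Flk1+ against 6.62 in F/F Flk1+ cells, and at 6.51 in KO Flk1- against 6.07 in F/F Flk1- cells. Apoe thus had the opposite direction to Ttr and Apob. Mttp, the transfer protein that loads lipid onto Apob and likewise named once its values were known, was above the floor on 2 arrays, at 3.24 in KO Flk1+ and 3.21 in F/F Flk1- cells.

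Of 17 further plasma, retinol and iron carrier genes, 5 were above the floor, with medians of -0.06 in Flk1+ and -0.11 in Flk1- cells. Rbp4, the retinol-binding protein that circulates with transthyretin, had knockout differences of -0.63 in Flk1+ and -0.27 in Flk1- cells, and Trf, transferrin, was above the floor on 2 of the 4 arrays. Of the defining visceral endoderm markers Amn and Cubn, which form an endocytic receptor, neither was above the floor on any array. The 6 visceral endoderm markers (Ttr, Afp, Apoa1, Apob, Amn and Cubn) had 3 members above the floor in KO Flk1+ and 3 in KO Flk1- cells, against 4 in F/F Flk1+ and 3 in F/F Flk1- cells. Their summed linear level was 84.4 in KO Flk1+ and 67.1 in KO Flk1- cells, against 184 in F/F Flk1+ and 218 in F/F Flk1- cells. Most of that difference was Ttr, itself a member chosen by these comparisons, and without it the other 5 summed to 56.8 in KO Flk1+ and 41.4 in KO Flk1- cells, against 65.2 in F/F Flk1+ and 53.7 in F/F Flk1- cells. Ttr, Apob and Apoa1 were the 3 of these markers above the floor on all 4 arrays, and Afp was above it on 1, so the label visceral endoderm has these few markers behind it and lacks Amn and Cubn. All 5 definitive endoderm markers on the array (Sox17, Foxa2, Cer1, Gsc and Trh) were above the floor in every group, and they summed to 1072 in KO Flk1+ and 1231 in KO Flk1- cells, against 335 in F/F Flk1+ and 871 in F/F Flk1- cells. Trh made up most of these sums in all groups, and the other 4 summed to 347 in KO Flk1+ and 528 in KO Flk1- cells, against 129 in F/F Flk1+ and 339 in F/F Flk1- cells.

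Of the 9 endocytosis genes of visceral endoderm, 6 were above the floor in Flk1+ and 7 in Flk1- cells. Their medians were near those of all genes, -0.05 in Flk1+ and 0.02 in Flk1- cells. Slc39a8, a zinc and manganese transporter, had knockout differences of 0.59 and -0.09, and Ctsh, a lysosomal protease, of -0.17 and -0.63. Among extraembryonic endoderm transcription factors, Hhex, a homeobox gene of anterior visceral and definitive endoderm, was at 7.42 in KO Flk1- against 6.35 in F/F Flk1- cells, 2.09-fold higher, and 0.77 higher in Flk1+ cells. Nr2f2, an orphan nuclear receptor, had a difference of -1.03 in Flk1- cells, where the KO array was below the floor, which makes it at least 1.21-fold lower. Gata4 and Gata6, zinc finger factors of endoderm and heart that were named once their values were known, were lower in KO in both fractions, with differences of -0.54 and -0.30 in Flk1+ and of -0.57 and -0.58 in Flk1- cells. Of this list 5 were higher and 4 lower in KO Flk1+ cells, where 42.5% of all genes were higher. The median was 0.10, against -0.05 for all genes. In KO Flk1- cells 4 were higher and 5 lower, where 56.8% of all genes were higher. The median there was -0.36, or -0.01 with no floor, against 0.04 for all genes.

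Most members of the definitive endoderm and anterior streak list were higher in KO, as Sox17 and Foxa2 were. Nothing is read from its counts, since the list was chosen with earlier results of these arrays known. Of 16 members above the floor in Flk1+ cells, 11 were higher in KO and 5 of them 2-fold or more, with a median of 0.44, where 42.5% of all genes were higher and 0.873% were 2-fold higher. In Flk1- cells 14 of 17 were higher and 2 of them 2-fold or more, with a median of 0.68, where 56.8% of all genes were higher and 0.389% were 2-fold higher, and in neither fraction was a member 2-fold lower (0 genes). Cer1, a secreted inhibitor of Nodal and BMP, was at 7.50 in KO Flk1+ against 5.32 in F/F Flk1+ cells, and at 8.15 in KO Flk1- against 7.45 in F/F Flk1- cells. F/F Flk1+ cells were the low group for Cer1, as for Pga5 and Trh. Lefty1, a Nodal antagonist, and Nodal itself had differences of 1.11 and 1.03 in Flk1+ cells, and of 1.60 and 0.78 in Flk1- cells. Sox2, at least 2.87-fold higher in KO Flk1+ cells, and Otx2, with a difference of 1.01, are also genes of the epiblast. Eomes and Mixl1, transcription factors of the streak that act upstream of endoderm, had the opposite sign in Flk1+ cells, -0.82 and -0.76.

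The visceral endoderm marker list that holds factors and surface genes, in place of plasma proteins, had 8 of 10 members higher in KO in each fraction, with medians of 0.60 in Flk1+ and 0.16 in Flk1- cells. Of all genes 42.5% were higher in KO in Flk1+ cells and 56.8% in Flk1- cells. Nothing is read from these counts either, since this list too was chosen with earlier results known. Cited1, a transcriptional coactivator, was 4.31-fold higher in KO Flk1+ and 1.11-fold higher in KO Flk1- cells. Hesx1, a homeobox gene of anterior visceral endoderm and of anterior neural tissue, was 3.58-fold higher in KO Flk1- cells. The 2 members lower in KO Flk1+ cells were Bmp2 (-0.76) and Npl (-0.83, with the KO array below the floor). In KO Flk1- cells the 2 lower members were Dkk1 (-0.36) and Npl (-0.11). Bmp2 was also 2.59-fold higher in Flk1+ than in Flk1- cells of F/F. Later gut genes had medians of -0.10 in Flk1+ and -0.05 in Flk1- cells and 0 genes 2-fold apart, and Muc13 and Tff3 had differences of 0.18 and -0.10 in Flk1+ cells. Of the axial mesoderm list, 1 gene was above the floor in Flk1+ cells, the Nodal coreceptor gene Cfc1, with a difference of -0.49, and Dand5, a Nodal antagonist, had 0.21 in Flk1- cells.

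**Figure D4:**
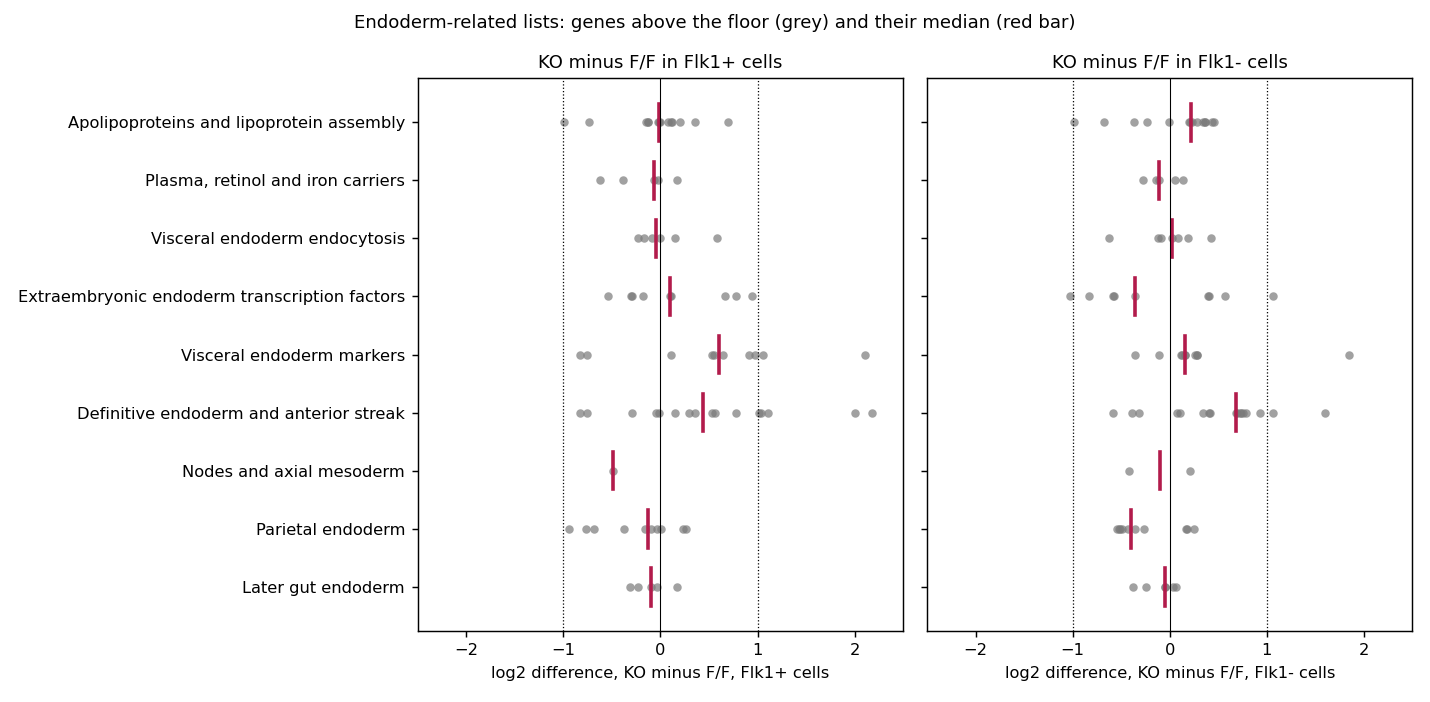
Log2 difference KO minus F/F (horizontal axis) in Flk1+ cells (left) and Flk1- cells (right) for the genes of 9 endoderm-related lists that were above the floor, 1 grey point per gene, with the median of each list as a red bar and the 2-fold rule dotted. The definitive endoderm and anterior streak list has medians of 0.44 and 0.68, and the apolipoprotein list, without the 10 genes, has medians of -0.01 and 0.22.

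Genes with the most similar pattern over the 4 arrays were found by the root mean square difference between log2 values centred on each gene's own mean, among 882 genes with a range of at least 1. For Ttr they were Myl4, Itgb3 and Mef2c (0.10, 0.22 and 0.29), and Apob ranked 68th at 0.85. For Apob they were Lrp1, Has2 and Phactr2 (0.06 to 0.08). For Sox17 they were Dnmt3b, Arhgef16 and Spint2 (0.04 to 0.07), and for Foxa2 they were Stx3, Socs2 and Elavl2 (0.02 to 0.06). Pga5 was nearest to Irs4, Nptx2 and Fzd5 (0.07 to 0.16), Trh to Cldn6, Dgkk and Cldn7 (0.11 to 0.13), and Hnf4a to Pmaip1, Atp8a1 and Clic6 (0.05 each). With 4 values per gene such likeness is a weak description, and none of these sets of 3 held another of the 10 genes. Hnf4a was the member nearest to Sox17 (0.13, 37th of the 882 genes), and Trh was the member nearest to Pga5 (0.28, 12th).

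Markers of other cell types differed along with the endoderm genes. The 7 pluripotency markers had a summed linear level of 259 in KO Flk1+ against 95.3 in F/F Flk1+ cells, and of 1116 in KO Flk1- against 652 in F/F Flk1- cells. Of them, 5 were above the floor in KO Flk1+ and 4 in F/F Flk1+ cells, and all 7 in both Flk1- groups. This is the direction of Sox17, Foxa2, Pga5 and Trh between genotypes. Between fractions, the pluripotency markers had Flk1+ minus Flk1- medians of -2.16 in KO and -2.24 in F/F cells. Those 4 genes were also lower in the Flk1+ fraction of F/F cells. In KO cells Foxa2 differed by -0.83, Sox17 by -0.52, Pga5 by -0.26 and Trh by 0.04. The 8 cardiac markers had a summed level of 445 in KO Flk1+ against 1332 in F/F Flk1+ cells, and of 281 in KO Flk1- against 1135 in F/F Flk1- cells, the direction of Ttr and Apob. Of them, 6 were above the floor in each KO group, against 7 in F/F Flk1+ and 8 in F/F Flk1- cells. The 7 primitive erythroid markers on the array, which were also lower in KO, summed to 53.2 in KO Flk1+ and 54.0 in KO Flk1- cells, against 155 in F/F Flk1+ and 2864 in F/F Flk1- cells. Ttr was 1.38-fold lower in Flk1+ than in Flk1- cells of F/F, and whether erythroid cells had a part in its values was not tested. The 8 fibroblast markers summed to 58.8 in KO Flk1+ and 50.4 in KO Flk1- cells, against 184 in F/F Flk1+ and 72.2 in F/F Flk1- cells, with 1 above the floor in KO Flk1+ and 1 in KO Flk1- cells, against 3 in each F/F group. The 5 trophoblast markers on the array summed to 90.5 in KO Flk1+ and 175 in KO Flk1- cells, against 52.2 in F/F Flk1+ and 94.8 in F/F Flk1- cells, with 4 above the floor in each KO group and 3 in each F/F group. The 8 endothelial markers summed to 825 in KO Flk1+ against 850.1 in F/F Flk1+ cells. In KO Flk1- cells they summed to 77.1, against 81.6 in F/F Flk1- cells. The Flk1+ sums rest largely on Kdr, the gene of the sort, at 9.03 in KO and 8.92 in F/F cells. By log2 difference, 3 of the 8 were higher and 5 lower in KO Flk1+ cells, with a median of -0.45. The part of these cell types in the endoderm gene values was not tested.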

How the data were processed

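Each of the 4 groups was hybridised to 1 Affymetrix array. The deposited values are log2 expression values for 45141 probe sets. The tools that the submitters' processing notes name are RMA and limma, while their versions and settings are not given in the sources used here. The values were used without further normalization. Control probe sets (104) were not used. The platform annotation names 1 gene for 28898 probe sets, several for 551 and none for 15588. Each gene was read from whichever of its probe sets had the highest mean. Folds against a value below the floor are lower bounds computed against the floor. The members and lists were chosen with earlier results of these data known. Named were all 10 members, up to 4 members per list and comparison that were 2-fold apart, 2 of any list with none, and the 3 genes nearest in pattern to each member with a range of at least 1. Alternatives were other fold rules and floors, quantile normalization, median centring, cyclic loess (span 0.3, 3 rounds; limma 3.58.1), the mean of probe sets, and leaving out _s_at and _x_at probe sets. Python used pandas 2.3.3 and numpy 2.4.6. The number of arrays limits the precision.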

Additional observations from a re-analysis of the deposited data

Results flagged for a closer look

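For 4 of the endoderm genes the difference had opposite signs in groups under the same contrast, each group being 1 array, so none of these differences was tested. The knockout difference of Apom was 0.17 in Flk1+ and -0.88 in Flk1- cells, 1.06 apart, and its other probe set had the same signs, 0.34 apart. That of Apoa1 was 0.45 in Flk1+ and -0.05 in Flk1- cells, 0.49 apart, and its other probe set was positive in both fractions. The Flk1+ minus Flk1- difference of Trh was 0.04 in KO and -1.37 in F/F cells, 1.41 apart. That of Ttr was 0.10 in KO and -0.47 in F/F cells, 0.57 apart, and its other probe set had 0.85 and -0.52. The values near 0, those of Apoa1 in Flk1- cells and of Ttr and Trh in KO cells, give the sign little weight.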

How the results depend on the processing

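No paired analysis was possible because each group holds 1 array. The number of the 10 genes past the rule changed by more than 1.5 times only with the size rule itself. At 1.5-fold it was 7 for KO minus F/F in Flk1+ cells (3 in the main setting), 5 in Flk1- cells (2), 3 for Flk1+ minus Flk1- in KO cells (0) and 5 in F/F cells (3). At 3-fold it was 1 for KO minus F/F in Flk1- cells, which was Ttr, and 1 for Flk1+ minus Flk1- in F/F cells, which was Pga5. Sox17 passed 2-fold in KO Flk1+ cells after quantile normalization (1.04), cyclic loess (1.05) and median centring (1.02), and with the mean of its probe sets (1.02). Without probe sets ending in _s_at or _x_at, Ttr had -0.60 in Flk1+ cells and was no longer past 2-fold, Apoa1 had 1.06 and Sox17 1.08 there, and Hnf4a had -0.29 on a probe set below the floor. Of 380 differences of the 10 genes over the alternatives, 348 kept their sign and side of the rule, and 10 changed sign, all in Afp, Apoa1 or Hnf4a at differences under the rule. Other fold rules and floors leave the differences as they were, so no sign could change there. Nor could it under the probe set alternatives for genes with 1 probe set. The count of 348 is therefore no measure of stability. Of 72 list medians, 4 changed sign or became 0 with no floor, all from values within 0.15 of 0. An alternative chosen after seeing the data took the floor and the probe sets without the KO Flk1- array, whose day is in doubt. The same genes were past the rule in KO Flk1+ against F/F Flk1+ cells (3) and in F/F Flk1+ against F/F Flk1- cells (3). Neither comparison uses that array and the values of the others were kept, so this does not bear on its day. Signal over background limits Afp, and the Hnf4a result rests on 1 probe set.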

Other observations

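Parietal endoderm genes, many of which encode basement membrane proteins that mesoderm and endothelium also make, were mostly higher in the Flk1+ fraction. Their Flk1+ minus Flk1- medians were 0.17 in KO and 0.34 in F/F cells. Of 10 members above the floor, 9 were higher in Flk1+ than in Flk1- cells of the knockout, where 41.4% of all genes were higher and 1.62% were 2-fold higher. In F/F cells 8 were higher, where 48.2% of all genes were higher and 1.20% were 2-fold higher. Col4a1 was 2.80-fold, Col4a2 2.58-fold, Lama1 2.43-fold and Nid1 2.40-fold higher in KO Flk1+ than in KO Flk1- cells. In F/F cells the Flk1+ minus Flk1- differences were 1.14 for Col4a1, 1.65 for Col4a2 and 1.42 for Nid1. Between genotypes 0 members were 2-fold apart, with medians of -0.13 in Flk1+ and -0.40 in Flk1- cells. In each fraction 7 of the 10 were lower in KO, so the list as a whole also differed by genotype.

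Among extraembryonic endoderm transcription factors, Sox7, which is also an endothelial gene, was above the floor in Flk1+ cells only, at 3.40 in KO and 3.58 in F/F cells. Nr2f2 was at 4.33 in KO Flk1+ against 2.43 in KO Flk1- cells, and at 4.23 in F/F Flk1+ against 3.46 in F/F Flk1- cells. Foxa1, a partner of Foxa2, had the opposite order and was above the floor in Flk1- cells only, at 4.08 in KO and 3.68 in F/F cells. Rhox5, a homeobox gene of extraembryonic and pluripotent cells, was 3.73-fold lower in Flk1+ than in Flk1- cells of the knockout and 6.12-fold lower in those of F/F. Cited1 was 1.23 higher in Flk1+ than in Flk1- cells of the knockout, and had a difference of -0.72 in F/F cells.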
